A study of Mus musculus with 20 samples.

Results

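Curated cell cycle pathway sets were followed through gene set enrichment results for myeloid cells of melanoma-bearing mice and for the melanoma lines themselves. A set belonged to this group when its name began with KEGG, REACTOME, BIOCARTA or PID and contained a cell cycle term such as CELL_CYCLE, MITOTIC, APC_C, G1_, G2_, S_PHASE, SPINDLE or CHECKPOINT. In all, 40 sets met this rule, of 3883 listed in each myeloid comparison and 3871 in the cell line comparison, and each of the 40 was listed in all 7 comparisons with the same number of genes. There were 35 Reactome, 3 BioCarta, 2 KEGG and 0 PID sets, of 16 to 450 genes. BIOCARTA_EDG1_PATHWAY met the rule only because its name ends in the letters G1 before the word pathway. EDG1 is a sphingosine-1-phosphate receptor, and this set is a cell cycle set by its letters alone.

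The tumour-bearing groups were C57BL/6 mice labelled as bearing B16F10 or YUMM3.3 tumours, and the controls were healthy C57BL/6 mice. B16F10 cells come from a spontaneous C57BL/6 melanoma by passage through the lung, and YUMM3.3 cells from a melanoma of mice with engineered driver mutations. For bone marrow there were 3 libraries with B16F10, 2 with YUMM3.3 and 3 from healthy animals, and for spleen 2 in each condition. Cultures of YUMM3.3 and of B16F10 gave 3 libraries each, seeded at equal number and kept for 4 days. All myeloid libraries were prepared by removing CD3e-positive T cells, which leaves B cells, erythroid precursors and progenitors in place, so the labelled cell type is a depleted and not a purified population. Only adult age is given, and the time for which tumours had grown is not stated.

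A dividing cell passes through G1, copies its DNA in S phase, prepares in G2 and separates its chromosomes in mitosis. Cyclin-dependent kinases drive each step, checkpoints hold the cell when DNA is damaged or chromosomes are unattached, and the anaphase-promoting complex (APC/C) marks cyclins and securin for destruction by the proteasome. Some Reactome sets that cover such destruction list proteasome subunits as well. In marrow, dividing precursors supply neutrophils and monocytes, which themselves do not divide as mature cells. The spleen of the mouse can also make blood cells, more so under stress.

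Each value is a normalised enrichment score (NES) from the authors' deposited table, 1 per set and comparison. An NES is large when the genes of a set lie together near 1 end of the list of genes ranked by their difference between the groups. It was signed so that a positive NES means higher in the first-named group. A set was called higher or lower at a deposited false discovery rate q (FDR q) below 0.05. These q values do not measure the spread between animals, and no value per library was analysed, so no SD can be given. In mixed cells, more dividing cells and more cell cycle RNA per cell cannot be told apart. Sets also share genes, and the 40 sets are not 40 separate observations. Sequencing depth is unknown here.

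Relative to healthy animals, most of the 40 sets were higher in B16F10-bearing marrow and spleen and in YUMM3.3-bearing spleen, whereas in YUMM3.3-bearing marrow they divided into a higher and a lower group. In B16F10-bearing against healthy bone marrow, 28 of 40 sets were called higher, or 70.0%, against 20.1% of all listed sets, and 0 lower against 5.00%. In YUMM3.3-bearing against healthy bone marrow, 12 were higher (30.0%, against 9.68% of all sets) and 4 lower (10%, against 6.52%). In spleen, 29 sets were higher with B16F10 than in healthy animals (72.5%, against 16.6%) and 0 lower (against 1.60%). With YUMM3.3, 36 were higher than in healthy spleen (90.0%, against 15.6%) and 0 lower (against 5.31%). The share of lower sets with YUMM3.3 in marrow lay near the background, and at a family-wise p below 0.05 in place of FDR q, 3 sets were higher and 0 lower there.

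The median NES of the 40 sets was 1.94 for B16F10 against healthy marrow, with 0.96 over all listed sets. It was -1.10 for YUMM3.3 against healthy marrow, with 0.74 over all sets, where 17 sets were positive and 23 negative. Over the 28 sets of 25 to 200 genes it was 1.32, of the other sign. In spleen it was 1.96 for B16F10 and 2.17 for YUMM3.3, each against healthy, beside 1.09 and -0.69 over all sets.

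Between the tumours, the marrow sets were called in both directions and 1 spleen set was called. In B16F10-bearing against YUMM3.3-bearing marrow, 10 sets were higher (25%, against 8.09% of all sets) and 6 lower (15%, against 8.40%). In B16F10-bearing against YUMM3.3-bearing spleen, 1 set was higher (2.5%, against 9.63%) and 0 lower (against 1.47%). Between the lines in culture, YUMM3.3 against B16F10, 0 sets were higher (against 11.8%) and 0 lower (against 1.47%). The authors' enrichment test gave a nominal p below 0.05 for 3 of the 40 sets in the lines, beside 1223 of 3871 listed sets. The spleen and line counts lay below the background on the higher side. At a family-wise p below 0.05, 1 set was higher and 0 lower between the tumours in marrow, and 0 were higher in spleen.

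**Figure D1:**
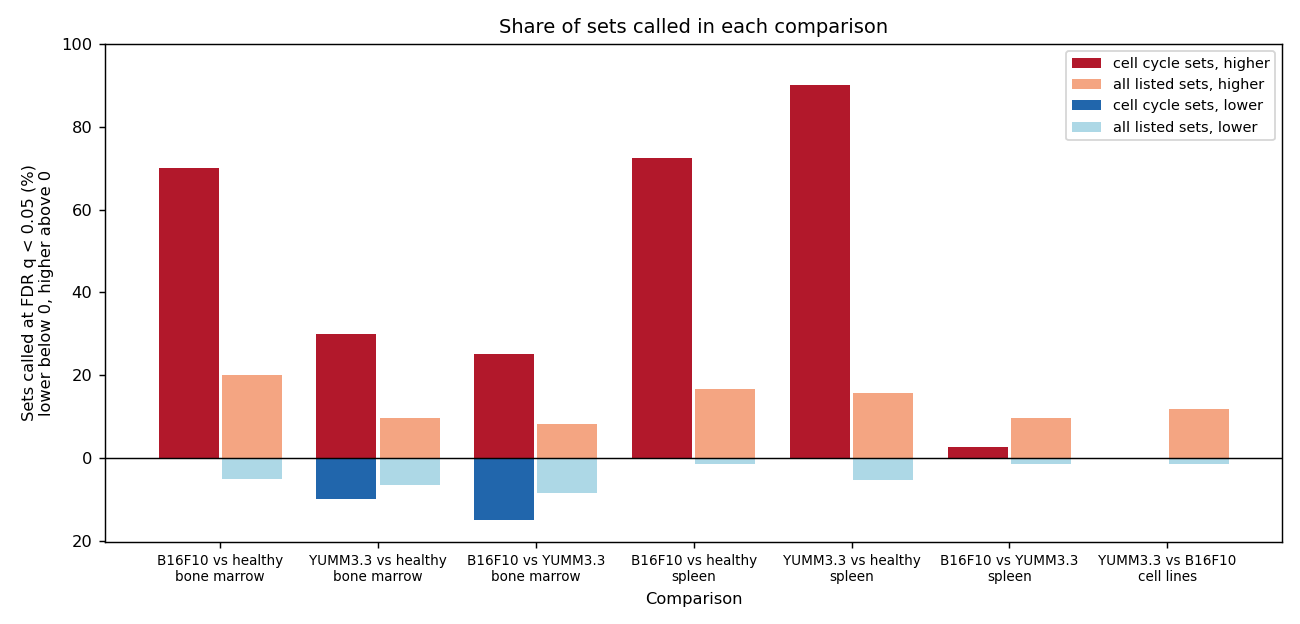
Percentage of sets called at FDR q below 0.05 in each of the 7 comparisons, for the 40 cell cycle sets (dark bars) and all listed sets (pale bars), with higher sets above 0 and lower sets below 0. The cell cycle bars reach 70.0%, 72.5% and 90.0% for B16F10 marrow, B16F10 spleen and YUMM3.3 spleen against healthy, and 0% in both directions in the cell lines.

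**Figure D2:**
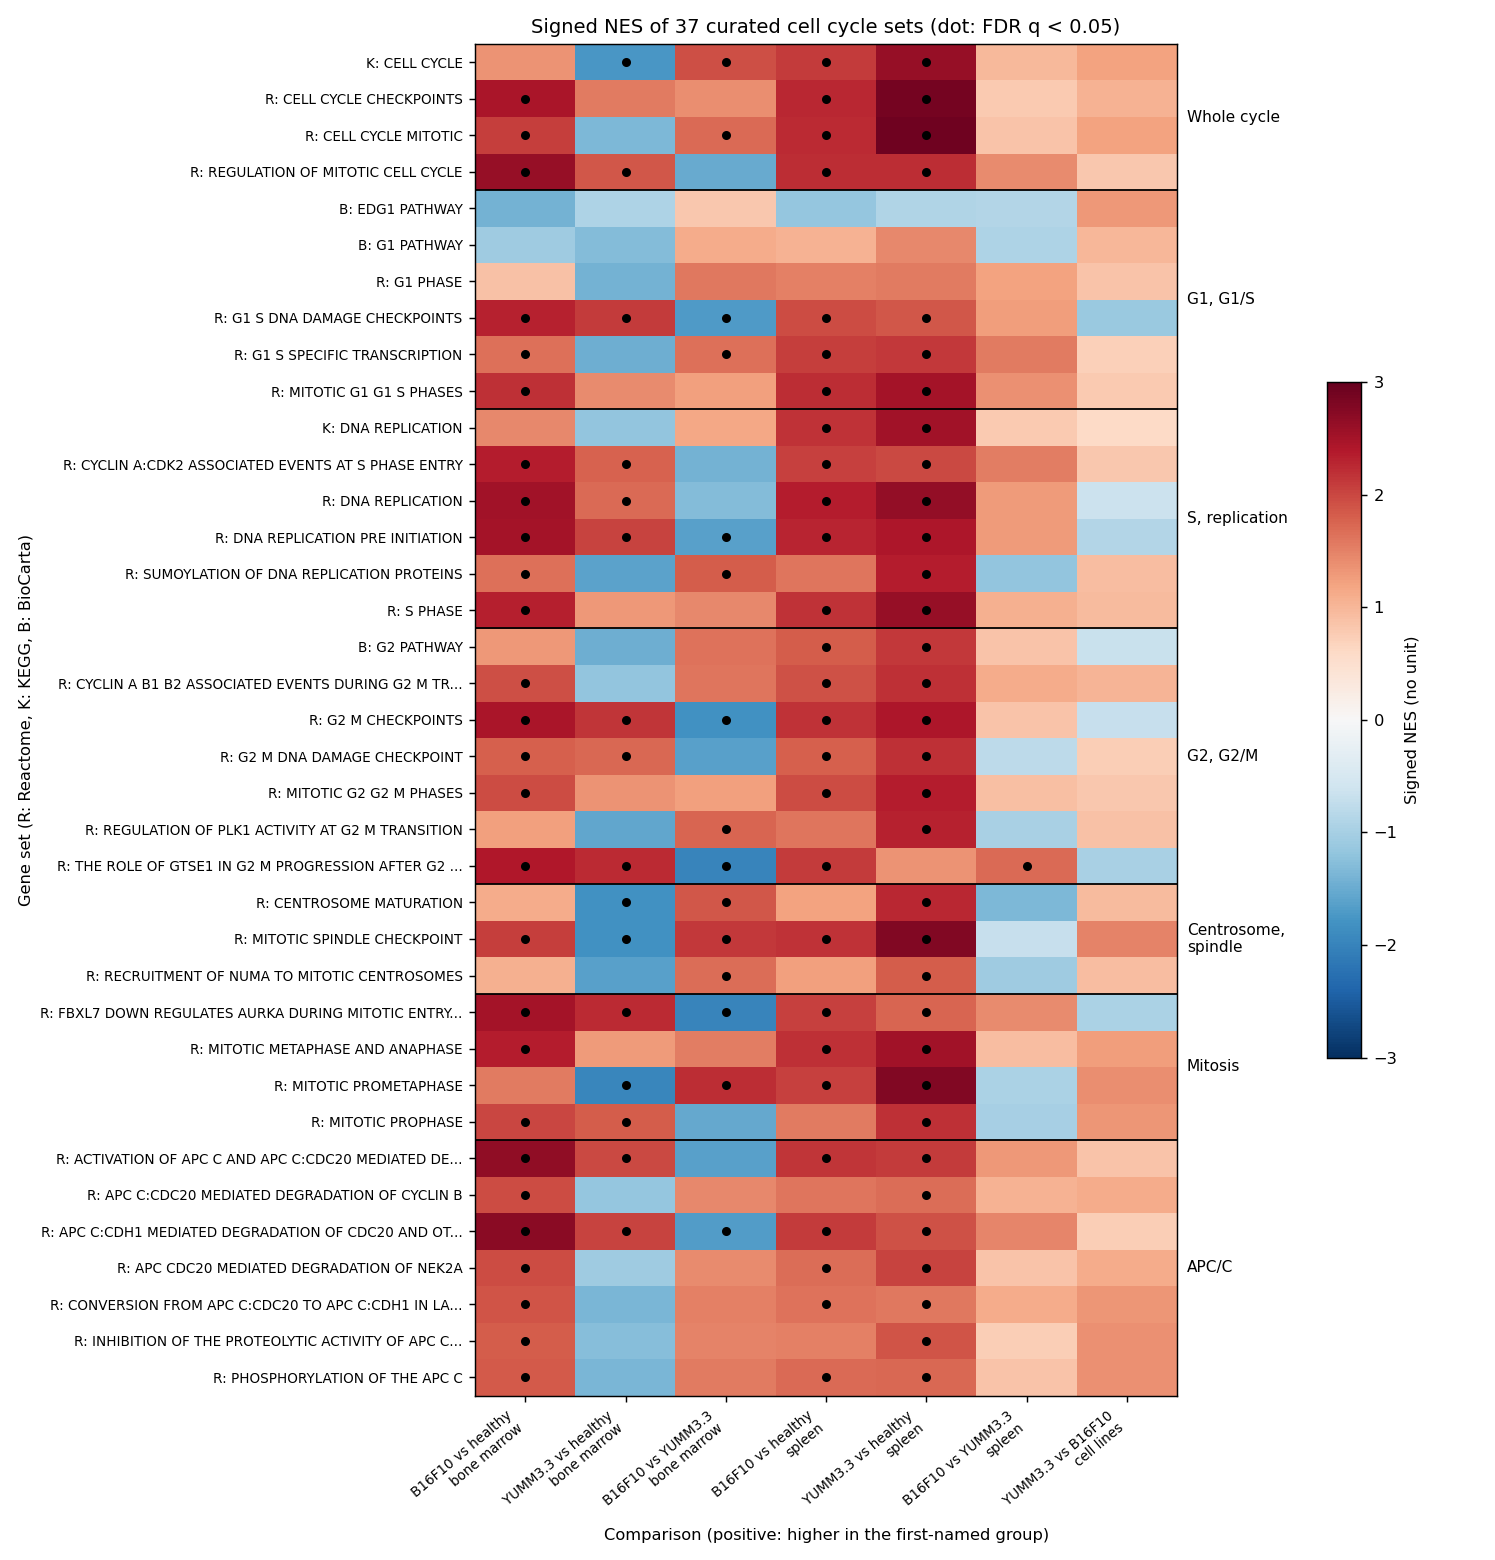
Signed NES (colour, no unit) of 37 of the 40 sets (rows, grouped by the phase named) in each comparison (columns), with a dot where FDR q was below 0.05. The column for YUMM3.3 against healthy marrow mixes 17 red and 20 blue cells, while YUMM3.3 against healthy spleen has a single blue cell, BIOCARTA_EDG1_PATHWAY.

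The broad sets that cover the whole cycle had this pattern. REACTOME_CELL_CYCLE_MITOTIC, the largest set with 450 genes, had an NES of 2.08 for B16F10 against healthy marrow and -1.35 for YUMM3.3 against healthy marrow in the authors' deposited table, and the YUMM3.3 value was not called (FDR q = 0.197). In spleen the authors' deposited table gave it 2.23 with B16F10 and 2.91 with YUMM3.3, the highest NES of any of the 40 sets in any comparison. KEGG_CELL_CYCLE, 113 genes for cyclins, kinases, E2F factors and checkpoint proteins, was lower with YUMM3.3 in marrow (NES -1.74, FDR q = 0.0326) and higher in spleen (2.61, FDR q listed as 0) in the authors' deposited table. Its NES for B16F10 was 1.35 against healthy marrow, with FDR q of 0.143, and 2.11 against healthy spleen in the authors' deposited table. Both sets were thus called higher in spleen with either tumour, and in marrow the signs for B16F10 and YUMM3.3 were opposite.

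REACTOME_REGULATION_OF_MITOTIC_CELL_CYCLE, which covers the APC/C and its targets, behaved otherwise. The authors' deposited table gave it an NES of 2.62 with B16F10 and 1.85 with YUMM3.3 in marrow, both higher than healthy, and 2.22 with each tumour in spleen. REACTOME_CELL_CYCLE_CHECKPOINTS, with 242 genes, had 2.45 with B16F10 and 1.55 with YUMM3.3 in marrow in the authors' deposited table, and the YUMM3.3 value was not called (FDR q = 0.0789). Of the 6 sets naming the whole cycle or no single phase, 4 were higher with B16F10 in marrow (66.7%, against 20.1% of all sets). With YUMM3.3 in marrow 1 was higher (16.7%, against 9.68%) and 1 lower (against 6.52%).

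Sets for G1 and the G1/S transition, the point at which a cell commits to division, numbered 6, BIOCARTA_EDG1_PATHWAY among them. Of the 6, 3 were higher with B16F10 in marrow (against 20.1% of all sets) and 1 with YUMM3.3 in marrow (against 9.68%). Spleen had 3 of the 6 higher with each tumour (against 16.6% with B16F10 and 15.6% with YUMM3.3). REACTOME_G1_PHASE, which holds the D-type cyclins and their inhibitors, was called in no comparison. Its NES against healthy was 0.87 with B16F10 and -1.42 with YUMM3.3 in marrow, and 1.52 with B16F10 and 1.55 with YUMM3.3 in spleen (authors' deposited table). BIOCARTA_G1_PATHWAY and BIOCARTA_EDG1_PATHWAY were likewise called nowhere.

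The transcripts made at the G1/S boundary followed the broad sets. REACTOME_G1_S_SPECIFIC_TRANSCRIPTION, 25 genes that E2F factors switch on, had an NES of 1.64 with B16F10 and -1.48 with YUMM3.3 in marrow in the authors' deposited table, and the negative value was not called (FDR q = 0.119). In spleen its NES was 2.06 with B16F10 and 2.11 with YUMM3.3 (authors' deposited table). The peak of the running score came early in spleen: 52% of its genes lay in the top 8% of the ranked list with B16F10, and 56% in the top 9% with YUMM3.3. REACTOME_G1_S_DNA_DAMAGE_CHECKPOINTS, which hold cells with damaged DNA in G1, was called higher in all 4 comparisons with healthy animals, at 2.32 with B16F10 and 2.09 with YUMM3.3 in marrow and 1.95 with B16F10 and 1.86 with YUMM3.3 in spleen (authors' deposited table).

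Sets for S phase and DNA replication were mostly higher than in healthy animals, YUMM3.3 marrow aside. Of 6 sets, 5 were higher with B16F10 in marrow (against 20.1% of all sets) and 3 with YUMM3.3 in marrow (against 9.68%). Spleen had 5 of the 6 higher with B16F10 (against 16.6%) and 6 with YUMM3.3 (against 15.6%). REACTOME_DNA_REPLICATION had an NES of 2.52 with B16F10 and 1.71 with YUMM3.3 in marrow in the authors' deposited table. Its spleen values were 2.36 with B16F10, the highest of the 40 sets in that comparison, and 2.63 with YUMM3.3 (authors' deposited table).

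KEGG_DNA_REPLICATION is the smaller of the replication sets, with 35 genes for the MCM helicase, the polymerases, the clamp and its loader. In marrow it was not called, with an NES of 1.44 for B16F10 (FDR q = 0.0950) and -1.17 for YUMM3.3 (FDR q = 0.363) in the authors' deposited table. In spleen it was higher with both tumours, at 2.17 with B16F10 and 2.52 with YUMM3.3 (authors' deposited table). With YUMM3.3, 66% of its genes lay in the top 9% of the ranked list in spleen, whereas in marrow the peak held 17% of its genes in the lowest 3% of the list. The Reactome replication set was thus called in marrow with both tumours and the KEGG set with neither, and in spleen both were called.

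REACTOME_SUMOYLATION_OF_DNA_REPLICATION_PROTEINS, named for attachment of the small modifier SUMO, had 1.65 with B16F10 (called higher) and -1.61 with YUMM3.3 (FDR q = 0.0661) in marrow (authors' deposited table). In spleen the NES was 1.60 with B16F10 and 2.35 with YUMM3.3, of which only YUMM3.3 was called (authors' deposited table). REACTOME_CYCLIN_A:CDK2_ASSOCIATED_EVENTS_AT_S_PHASE_ENTRY was called higher in all 4 comparisons with healthy animals, at 2.36 with B16F10 and 1.76 with YUMM3.3 in marrow and 2.05 with B16F10 and 1.99 with YUMM3.3 in spleen (authors' deposited table).

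In G2 and at the G2/M transition, 5 of 8 sets were higher with B16F10 in marrow (62.5%, against 20.1% of all sets). With YUMM3.3 in marrow 3 were higher (37.5%, against 9.68%). In spleen 7 were higher with each tumour (87.5%, against 16.6% with B16F10 and 15.6% with YUMM3.3). REACTOME_G2_M_CHECKPOINTS, which delays mitosis while DNA is damaged or unreplicated, had an NES of 2.46 with B16F10 and 2.14 with YUMM3.3 in marrow and 2.16 with B16F10 and 2.43 with YUMM3.3 in spleen (authors' deposited table). REACTOME_CYCLIN_A_B1_B2_ASSOCIATED_EVENTS_DURING_G2_M_TRANSITION, 20 genes around the kinase that starts mitosis, had 1.93 with B16F10 and -1.19 with YUMM3.3 in marrow, the second not called (authors' deposited table). Its spleen NES was 1.91 with B16F10 and 2.20 with YUMM3.3, both called higher (authors' deposited table). The mitotic kinase set thus differed in sign between the marrow comparisons although the checkpoint set did not.

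The 1 set of the 8 not called with B16F10 in spleen was REACTOME_REGULATION_OF_PLK1_ACTIVITY_AT_G2_M_TRANSITION, at 1.61 (FDR q = 0.0541), and with YUMM3.3 it was REACTOME_THE_ROLE_OF_GTSE1_IN_G2_M_PROGRESSION_AFTER_G2_CHECKPOINT (authors' deposited table). GTSE1 is a microtubule-bound protein that acts as cells recover from a G2 arrest. The GTSE1 set had an NES of 2.10 with B16F10 and 1.35 with YUMM3.3, FDR q of 0.173, in spleen in the authors' deposited table. It was the 1 set of the 40 called in B16F10-bearing against YUMM3.3-bearing spleen, with an NES of 1.70 and FDR q of 0.0394 (authors' deposited table). In marrow it was higher with both tumours, 2.40 with B16F10 and 2.23 with YUMM3.3, and lower with B16F10 than with YUMM3.3 (-1.98, FDR q = 0.00289; authors' deposited table).

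Sets for the spindle and its poles lay on the lower side in YUMM3.3 marrow. All 3 had a negative NES there, and 2 were called lower (against 6.52% of all sets). REACTOME_MITOTIC_SPINDLE_CHECKPOINT, which holds anaphase until every kinetochore is attached, had an NES of 2.09 with B16F10 (FDR q = 0.000535) and -1.82 with YUMM3.3 (FDR q = 0.0218) in marrow in the authors' deposited table. REACTOME_CENTROSOME_MATURATION, in which the poles gather gamma-tubulin before mitosis, had 1.11 with B16F10, not called, and -1.81 with YUMM3.3, called lower (FDR q = 0.0227; authors' deposited table). REACTOME_RECRUITMENT_OF_NUMA_TO_MITOTIC_CENTROSOMES had 1.06 with B16F10 and -1.63 with YUMM3.3, neither called (authors' deposited table). In B16F10-bearing against YUMM3.3-bearing marrow all 3 were called higher (against 8.09% of all sets). Their NES was 2.11 for the spindle checkpoint, 1.86 for centrosome maturation and 1.69 for NuMA recruitment (authors' deposited table).

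In spleen the same 3 sets were higher with YUMM3.3 (against 15.6% of all sets). The authors' deposited table gave 2.78 for the spindle checkpoint, 2.25 for centrosome maturation and 1.81 for NuMA recruitment. With B16F10 in spleen the spindle checkpoint was higher, at 2.17, while centrosome maturation (1.20, FDR q = 0.371) and NuMA recruitment (1.23) were not called (authors' deposited table). The difference between the tumours in spleen was not called for any of them, with NES from -1.34 to -0.70 for B16F10 against YUMM3.3 (authors' deposited table).

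Mitosis proper comprised 4 sets. REACTOME_MITOTIC_PROMETAPHASE, the stage at which microtubules capture chromosomes, was the lowest of the 40 sets in YUMM3.3 marrow, at -1.96 (FDR q = 0.00734; authors' deposited table). With B16F10 in marrow it had 1.57, just outside the call at FDR q of 0.0506, and it was the highest of the 40 in B16F10-bearing against YUMM3.3-bearing marrow, at 2.21 (authors' deposited table). In spleen the authors' deposited table gave 2.05 with B16F10 and 2.78 with YUMM3.3, both called higher. This set therefore was called in opposite directions in YUMM3.3 marrow and YUMM3.3 spleen.

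The other mitotic sets were not lower in YUMM3.3 marrow. REACTOME_MITOTIC_PROPHASE, which includes histones and condensins, had 2.00 with B16F10 and 1.82 with YUMM3.3, both called higher (authors' deposited table). REACTOME_MITOTIC_METAPHASE_AND_ANAPHASE had 2.37 with B16F10, called higher, and 1.27 with YUMM3.3, not called (authors' deposited table). REACTOME_FBXL7_DOWN_REGULATES_AURKA_DURING_MITOTIC_ENTRY_AND_IN_EARLY_MITOSIS, named for a ubiquitin ligase component that targets Aurora kinase A, had 2.50 with B16F10 and 2.24 with YUMM3.3 (authors' deposited table). That FBXL7 set was the highest of the 40 with YUMM3.3 in marrow and was lower in B16F10-bearing than in YUMM3.3-bearing marrow (-1.98, FDR q = 0.00290; authors' deposited table).

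The 7 APC/C sets were all higher with B16F10 in marrow (100%, against 20.1% of all sets) and with YUMM3.3 in spleen (100%, against 15.6%). With B16F10 in spleen 5 were higher (71.4%, against 16.6%). The B16F10 marrow NES of the 7 ran from 1.81 to 2.72 in the authors' deposited table. The set for APC/C with its activator Cdh1 acting on Cdc20 and other proteins in late mitosis was the highest of the 40 there, with 81% of its 67 genes in the top 24% of the ranked list (authors' deposited table). With YUMM3.3 in marrow these sets split by size, and 2 were called higher (28.6%, against 9.68% of all sets). The 2 large ones, of 67 and 70 genes, were higher at 2.02 and 1.99, and the other 5, of 16 to 22 genes, ran from -1.38 to -1.06 with none called (authors' deposited table).

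Those 5 small sets name the phosphorylation of the complex, its inhibition, the switch between its activators and its action on cyclin B and on Nek2A, and the 2 large ones name its wider range of targets. REACTOME_PHOSPHORYLATION_OF_THE_APC_C, the smallest with 16 genes, had 1.84 with B16F10 and -1.38 with YUMM3.3 in marrow and 1.71 with B16F10 and 1.73 with YUMM3.3 in spleen (authors' deposited table). The spindle checkpoint set that inhibits APC/C had 1.81 with B16F10 and -1.27 with YUMM3.3 in marrow, and 1.51 with B16F10 and 1.90 with YUMM3.3 in spleen, of which -1.27 and 1.51 were not called (authors' deposited table).

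**Figure D3:**
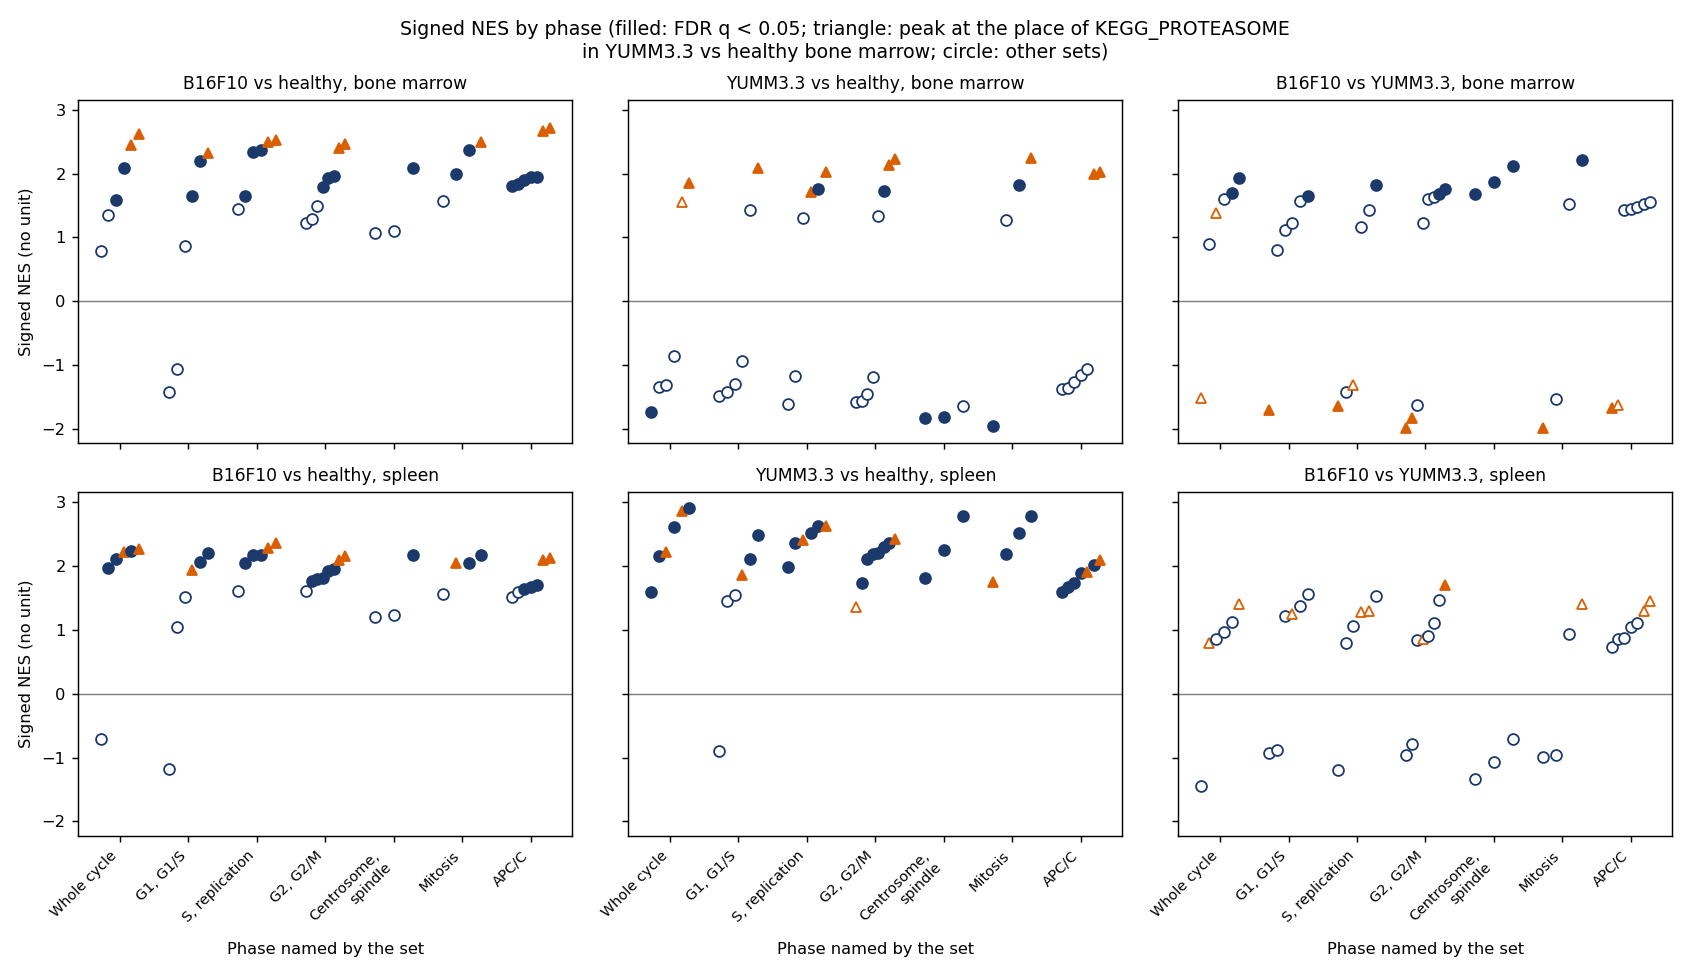
Signed NES (vertical axis, no unit) of each set by the phase it names (horizontal axis) in the 6 myeloid comparisons. Filled symbols have FDR q below 0.05, and triangles mark the 10 sets whose score peaked at the same place as KEGG_PROTEASOME in YUMM3.3-bearing against healthy marrow. In that panel the triangles lie between 1.55 and 2.24 in 6 of the 7 phases, and the 3 spindle and centrosome sets lie between -1.82 and -1.63.

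The place in the ranked list at which each score peaked was the same for several of the YUMM3.3 marrow sets. Only 1 gene stands at each place, so sets of the same sign that peak at the same place do so at the same gene. KEGG_PROTEASOME, the subunits of the protease that destroys ubiquitin-marked proteins, peaked at gene 1519 from the YUMM3.3 end (authors' deposited table). At this place 10 of the 40 cell cycle sets peaked as well, or 25%, against 64 of all 3883 sets, or 1.65%. In B16F10 spleen against healthy spleen, 9 of the 40 shared the place of KEGG_PROTEASOME (22.5%, against 1.60% of all sets). Between the lines 6 did (15%, against 0.775%). In B16F10-bearing against healthy marrow, in YUMM3.3-bearing against healthy spleen and between the tumours in either tissue, 0 of the 40 did. Of all sets, at most 0.541% did in these comparisons. The YUMM3.3 marrow group was noticed after the values had been seen and carries no test.

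The 10 sets were the 2 large APC/C sets, DNA replication, replication pre-initiation, the G1/S and G2/M checkpoint sets, the GTSE1 and FBXL7 sets, REGULATION_OF_MITOTIC_CELL_CYCLE and CELL_CYCLE_CHECKPOINTS. Their choice by a peak at the YUMM3.3 end fixes a positive NES with YUMM3.3 in marrow, and all 64 sets that peaked there were positive. The 10 had NES from 1.55 to 2.24, and 9 were called higher. Of the other 30, 7 were positive and 23 negative, with 3 called higher (against 9.68% of all sets) and 4 lower (against 6.52%). Another 54 listed sets peaked there too, and 43 of these were called higher. KEGG_PROTEASOME itself had an NES of 2.33 with YUMM3.3 and 2.52 with B16F10 in marrow (authors' deposited table). The reports do not name the gene at this place, and the part of proteasome genes in the cell cycle scores was not tested.

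The values of the same 10 sets in the other comparisons are a description, since the YUMM3.3 marrow values chose them. In B16F10-bearing against YUMM3.3-bearing marrow, 6 of the 10 were called lower and 0 higher, with a median NES of -1.65. Of the other 30, 10 were called higher and 0 lower, with a median of 1.54. Over all listed sets, 8.09% were called higher and 8.40% lower in that comparison. KEGG_PROTEASOME was lower there too, at -2.00 (FDR q = 0.00231; authors' deposited table). All marrow comparisons share libraries, so these values are not separate from those against healthy marrow. With B16F10 against healthy marrow, the 10 had NES from 2.32 to 2.72 and all were called. Of the other 30, 18 were called higher, beside 20.1% of all sets.

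In YUMM3.3-bearing spleen most of the 10 sets and most of the other 30 were higher than in healthy spleen. With YUMM3.3 against healthy spleen, 9 of the 10 and 27 of the other 30 were called higher, with medians of 2.16 and 2.17. Over all listed sets, 15.6% were called higher in that comparison. KEGG_PROTEASOME had an NES of 1.83 with YUMM3.3 and 2.06 with B16F10 in spleen (authors' deposited table). It was 1.31 in B16F10-bearing against YUMM3.3-bearing spleen and was not called (FDR q = 0.263; authors' deposited table). Of the other curated sets with proteasome in the name, the one for destruction of the hedgehog factor GLI1 had 2.15 and the one for ubiquitination and antigen processing had -1.14, not called, with YUMM3.3 in marrow (authors' deposited table).

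**Figure D4:**
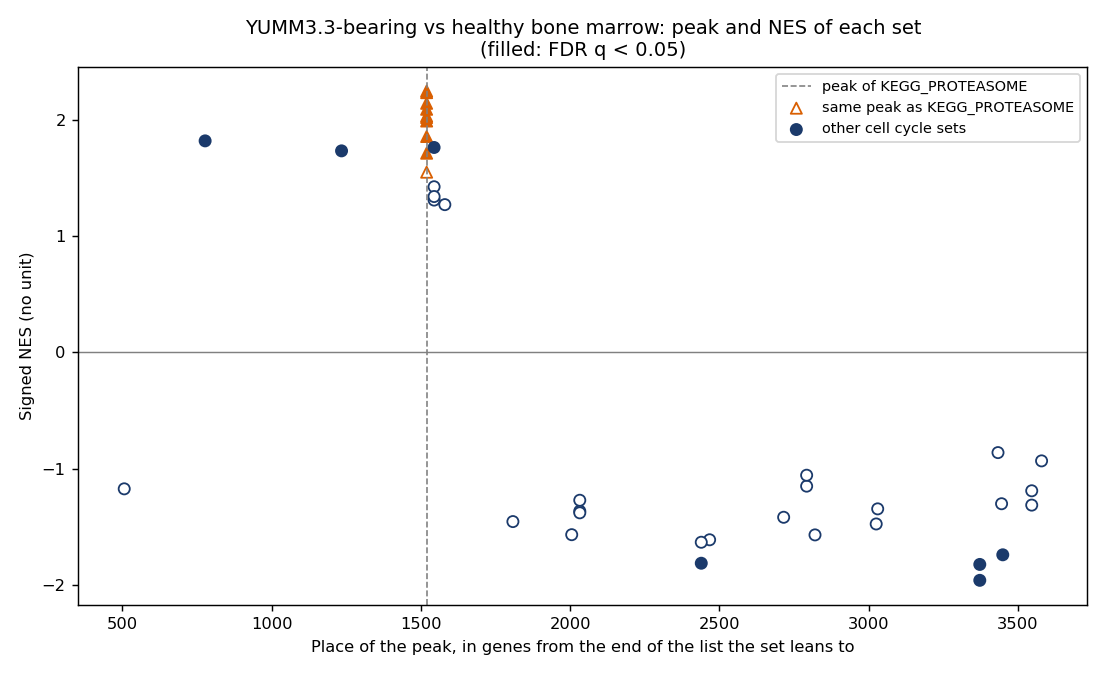
Signed NES (vertical axis, no unit) against the place of the peak in the ranked gene list (horizontal axis, in genes from the end of the list the set leans to) for the 40 sets in YUMM3.3-bearing against healthy marrow. The 10 triangles stand on the dashed line at gene 1519, where KEGG_PROTEASOME peaked, and the 23 negative sets stand below 0, most of them with peaks further into the list.

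Bone marrow and spleen share no library. For B16F10 against healthy, 24 sets were called higher in both tissues, which is 85.7% of the marrow list and 82.8% of the spleen list. Over all 3883 listed sets the sets called higher in both were 50.7% of the marrow list and 61.6% of the spleen list. With 29 of the 40 sets higher in B16F10 spleen, that total alone gives 72.5% of the marrow list. Over all listed sets the spleen total alone gives 16.6%. For YUMM3.3, 11 of the 40 were called higher in both, 91.7% of the marrow list and 30.6% of the spleen list, beside 25.8% and 16.0% over all listed sets. With 36 of the 40 sets higher in YUMM3.3 spleen, an overlap of 11 among the 12 of the marrow list is close to the 90.0% that the spleen total alone gives. The 4 sets called lower in YUMM3.3 marrow, KEGG_CELL_CYCLE, centrosome maturation, the spindle checkpoint and prometaphase, were all higher in spleen. Whether the tissues came from the same animals is not stated, and the difference between tissues was not tested.

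In the lines grown in culture, no cell cycle set was called between YUMM3.3 and B16F10. The NES ran from -1.10 for the G1/S DNA damage checkpoints to 1.49 for the spindle checkpoint, whose FDR q of 0.0890 was the smallest (authors' deposited table). Of the 40 sets, 32 were positive and 8 negative, beside 2839 and 1032 of all listed sets.

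Of 34 curated cell cycle set names looked for beside the rule, 24 were listed and not caught by it. Of these, 8 were higher with B16F10 in marrow (33.3%, against 20.1% of all sets) and 0 lower (against 5.00%). The marrow counts with YUMM3.3 were 4 higher (16.7%, against 9.68%) and 5 lower (20.8%, against 6.52%). Spleen had 18 of the 24 higher with B16F10 (against 16.6% of all sets) and 23 with YUMM3.3 (against 15.6%). PID_PLK1_PATHWAY, for the Polo-like kinase that drives mitotic entry, had 1.74 with B16F10 and -1.82 with YUMM3.3 in marrow and 2.13 with B16F10 and 2.65 with YUMM3.3 in spleen, all called (authors' deposited table). REACTOME_NUCLEAR_ENVELOPE_BREAKDOWN had the lowest YUMM3.3 marrow value of the 24, -2.06 (authors' deposited table). The highest YUMM3.3 marrow value of the 24 was 2.28, for REACTOME_MEIOSIS, and REACTOME_CHROMOSOME_MAINTENANCE had 2.16, both called higher (authors' deposited table). REACTOME_SCF_SKP2_MEDIATED_DEGRADATION_OF_P27_P21, a destruction step of the kinase inhibitors p27 and p21, had 2.23 there, also called higher (authors' deposited table). The meiosis and chromosome maintenance scores peaked at genes 811 and 1076, and the SKP2 score at gene 1519 (authors' deposited table).

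Sets for DNA synthesis and its control outside the rule did not all lie on one side in YUMM3.3 marrow. REACTOME_DNA_STRAND_ELONGATION had 1.53 with B16F10 and -1.18 with YUMM3.3 in marrow, neither called, and 2.14 with B16F10 and 2.55 with YUMM3.3 in spleen, both called higher (authors' deposited table). PID_E2F_PATHWAY had 1.39 with B16F10, not called, and -1.76 with YUMM3.3, called lower, in marrow, and 2.06 with B16F10 and 2.47 with YUMM3.3 in spleen, both called higher (authors' deposited table). REACTOME_ORC1_REMOVAL_FROM_CHROMATIN, the step that takes an origin-binding protein off DNA, was called higher in all 4 comparisons with healthy animals, at 2.53 with B16F10 and 2.11 with YUMM3.3 in marrow and 2.19 with B16F10 and 2.09 with YUMM3.3 in spleen (authors' deposited table).

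Of 18 sets named for blood cell types or their receptors, 5 were higher (27.8%, against 20.1% of all sets) and 9 lower (50%, against 5.00%) with B16F10 in marrow. With YUMM3.3 in marrow 1 was higher (5.56%, against 9.68%) and 3 lower (16.7%, against 6.52%). In spleen 5 were higher (27.8%, against 16.6%) and 3 lower (16.7%, against 1.60%) with B16F10, and 2 higher and 2 lower (11.1% each, against 15.6% and 5.31%) with YUMM3.3. The shares of higher sets with YUMM3.3 lay below the background in both tissues. IVANOVA_HEMATOPOIESIS_LATE_PROGENITOR had 2.49 with B16F10 and -1.77 with YUMM3.3 in marrow and 2.26 with B16F10 and 1.67 with YUMM3.3 in spleen, all called (authors' deposited table). IVANOVA_HEMATOPOIESIS_MATURE_CELL had 2.12 with B16F10 and -2.17 with YUMM3.3 in marrow, both called, and 2.75 with B16F10 (called) and -1.51 with YUMM3.3 (not called) in spleen (authors' deposited table). WELCH_GATA1_TARGETS, erythroid genes, had 1.93 in marrow and 2.31 in spleen with B16F10, both called, and was not called with YUMM3.3 in either tissue (authors' deposited table). These 3 had positive NES with B16F10 in both tissues. BROWN_MYELOID_CELL_DEVELOPMENT_UP did too, at 2.62 in marrow and 2.08 in spleen, both called higher (authors' deposited table). That set was not called with YUMM3.3 against healthy in either tissue. Of the 18 sets, 7 were positive and 11 negative with B16F10 in marrow, and 11 positive and 7 negative in spleen. HADDAD_B_LYMPHOCYTE_PROGENITOR had -2.74 with B16F10 in marrow, the lowest of all 3883 sets, and was not called in the other comparisons with healthy animals (authors' deposited table). KEGG_B_CELL_RECEPTOR_SIGNALING_PATHWAY was called lower at -1.87 with B16F10 and -1.72 with YUMM3.3 in marrow and at -2.25 with B16F10 in spleen, and had 0.72 with YUMM3.3 in spleen (authors' deposited table). IVANOVA_HEMATOPOIESIS_STEM_CELL had -2.22 and IVANOVA_HEMATOPOIESIS_STEM_CELL_LONG_TERM -2.37 with B16F10 in marrow, both called lower (authors' deposited table). IVANOVA_HEMATOPOIESIS_STEM_CELL_AND_PROGENITOR was lower with B16F10 in both tissues, at -2.16 in marrow and -1.82 in spleen (authors' deposited table). The part of cell composition in the cell cycle scores was not tested.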

How the data were processed

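RNA from 14 myeloid and 6 melanoma line libraries was sequenced. Per the submitters' processing notes, FastQC 0.11.8, STAR 2.7.1a, featureCounts 1.6.0, DESeq2 1.22.2 and the mm10 build were used, with no roles given. The authors deposited 14 enrichment reports, 2 for each of 7 comparisons. Per the file headers, each gives a gene set, its size, an enrichment score and NES, a nominal p-value, an FDR q, a family-wise p and the place of the peak. Neither labels nor headers say how the enrichment was run.

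Each report was read as listing sets higher in the group it names first, or by its up and down labels for the lines. The sign of NES was then set from this reading, because in 4 comparisons the first-named group carried negative scores. No report held both signs. A joint reversal of 1 tissue's reports cannot be told from these files. The smallest nonzero nominal p-value in the deposited tables was 0.00103, below the 0.1 that relabelling 3 against 2 libraries allows, so the deposited p and q values do not rest on relabelled libraries.

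Members were found by set name, and each set went to the first of 7 phases its name matched: APC/C, centrosome or spindle, G2, G1, S phase, mitosis, or the rest. The members, phases and lists were chosen with earlier results of these data known. Named are the highest and lowest sets of each comparison and phase, KEGG_CELL_CYCLE, KEGG_DNA_REPLICATION, small phases and sets called in opposite directions. The values of 3 of the 40 sets are not reported here one by one, though counts, medians and plots without set names include them. The reading of signs and calls was tested on simulated reports. No test of set values was added, gene-level analysis was not made, and no sequence is shown because the reports name no genes. Calculations used Python 3.11.15 with pandas 2.3.3. Depth per library is unknown here. The alternatives were an FDR q of 0.25, a family-wise p of 0.05, sets of 25 to 200 genes, Reactome sets alone and, chosen after seeing the data, the 40 sets without BIOCARTA_EDG1_PATHWAY.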

Additional observations from a re-analysis of the deposited data

How the results depend on the processing

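Leaving out BIOCARTA_EDG1_PATHWAY, or keeping only the 28 sets of 25 to 200 genes, kept all 14 counts of cell cycle sets within 1.5 times of the values given. The shares differ, since 12 sets were higher for YUMM3.3 against healthy marrow among the 28 and also among the 40. At a family-wise p below 0.05, the counts of higher sets were 14 of 40 for B16F10 against healthy marrow, 3 for YUMM3.3 against healthy marrow, 1 for B16F10 against YUMM3.3 marrow, 19 for B16F10 against healthy spleen and 0 for B16F10 against YUMM3.3 spleen. The lower counts became 0 for YUMM3.3 against healthy marrow and 0 for B16F10 against YUMM3.3 marrow. At an FDR q below 0.25, the lower counts were 1 for B16F10 against healthy marrow, 16 for YUMM3.3 against healthy marrow, 12 for B16F10 against YUMM3.3 marrow and 1 for B16F10 against YUMM3.3 spleen. The higher counts at that threshold were 22 for B16F10 against YUMM3.3 marrow, 8 for B16F10 against YUMM3.3 spleen and 7 for YUMM3.3 against B16F10 lines. These follow from the looser or stricter threshold. The median NES for YUMM3.3 against healthy marrow reversed to 1.32 with sets of 25 to 200 genes. With the 35 Reactome sets alone it was -0.86, beside -1.10 for the 40. For B16F10 against YUMM3.3 spleen the Reactome median was 1.04, beside 0.91. The other 5 medians stayed within 0.1 with Reactome sets alone. No paired analysis was possible because the reports hold no values per library, and for the same reason no library could be left out.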
